A study of Mus musculus with 12 samples.

Results

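Histone genes were examined in mouse Th2 cells, the T helper subset behind allergic inflammation. Members were the genes of the RNA table whose symbol carries a histone H1, H2A, H2B, H3 or H4 stem and whose mean over the 6 RNA libraries was at least 10 normalized counts. The symbol matched 70 of 25700 genes, and 42 of them reached that mean, of 18074 genes tested in all. Of the 42, 34 belong to the clustered histone genes (of 58 matched) and 8 to the variant histones outside the clusters (of 12 matched). The member just inside the limit was Hist1h2an, with a mean of 10.97, and the gene just outside it was H3c4, with 9.92. The 4 variant matches below the limit were H1f8, H1f11-ps, H3f3a-ps2 and H3f3aos.

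The labels give cells of type T cell with the genotype WT or cKO (conditional knockout), with 3 RNA-seq and 3 ATAC-seq libraries for each genotype, 12 in all. ATAC-seq marks open chromatin by the sites where a transposase can insert. NRF2, an antioxidant transcription factor whose gene is Nfe2l2, is named in the series title. The deleted gene, what drives its deletion, and the strain, age, treatment and number of animals are not in the labels, and the knockout group is therefore called cKO-labelled. Nothing in the labels says that the libraries of a group came from separate animals or cultures, so the p-values measure the spread between these libraries, which may be technical.

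DNA in the nucleus is wound around nucleosomes, which are made of the core histones H2A, H2B, H3 and H4, and linker histone H1 binds the DNA between them. The clustered genes are short, mostly without introns, and are transcribed mainly in S phase, when replicated DNA must be packaged; their mRNAs usually end in a stem-loop in place of a poly(A) tail. Variant histones such as H2A.Z and H3.3 come from genes outside the clusters, with polyadenylated mRNAs, and are made throughout the cell cycle. They are placed at particular sites, among them promoters and enhancers. H2A.X, also from a gene outside the clusters, lies along the genome, where it is phosphorylated beside DNA breaks. The labels do not say whether poly(A) RNA was selected, so the values of the clustered genes may count only part of their mRNA.

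Each RNA library summed to between 6431081 and 7372007 normalized counts; raw depth is unknown. ATAC libraries held 13149952 to 18327127 tags, with 25.22% to 38.28% of tags in peaks, the lowest share in WT replicate 2. The T cell markers Cd3e, Cd3d, Cd3g, Cd4, Cd2, Lat and Cd28 together took 0.175% to 0.189% of the counts in WT and 0.172% to 0.184% in cKO-labelled libraries. The B cell markers took at most 0.00643%, the myeloid and dendritic markers at most 0.00354%, and none of the 4 erythroid markers was in the table. Higher sums came from the plasma cell list, which includes Xbp1, at up to 0.0119%. The epithelial and stromal list, which includes Vim, took 0.0641% to 0.0723% in WT and 0.0602% to 0.0692% in cKO-labelled libraries. The part of each gene in these sums was not examined. The male-specific genes Ddx3y, Eif2s3y, Uty and Kdm5d summed to 297.8 to 347.3 in WT and to 0.0 to 1.469 in cKO-labelled libraries, so sex and genotype cannot be told apart in the RNA comparisons; the sex of the ATAC libraries was not examined. Mitochondrially encoded genes took 2.15% to 3.35% of the counts in WT and 2.91% to 4.47% in the others, and ribosomal protein genes 9.75% to 12.1% and 8.32% to 10.1%. Tested genes with a span up to 1 kb had a median log2 deviation of 0.29 from their mean over libraries in WT replicate 2 and in cKO-labelled replicate 2, and of -0.15 to 0.01 in the other 4. The part of these differences between libraries in the histone values was not tested. Nfe2l2 had 147.4 to 169.9 normalized counts in WT and 326.4 to 452.8 in cKO-labelled libraries. In bulk samples, fewer cells in S phase and less histone mRNA per cell cannot be told apart.

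The 200 bases before the start of 5 members are shown. Hist1h2ap, H1f2 and H2az1 carry RNA differences described below, though none passed in limma. H4c4 and H2ac19 lie at the 2 regions with the largest fall in ATAC height after quantile normalization. H4c4 shares its region with a start of H2bc6, and its own RNA groups overlapped (log2 change 1.13, adjusted p = 0.722 in limma). Capitals mark CCAAT, the box bound by NF-Y in many histone promoters, on either strand (ATTGG on the other one), and TATAAA, the TATA box. Sequences are from RefSeq on GRCm38.p6, 5′ to 3′ on the gene's strand. They lie at chr13:21833476-21833675 (minus strand) for Hist1h2ap, chr13:23738607-23738806 (plus) for H1f2, chr13:23581368-23581567 (plus) for H4c4, chr3:96240375-96240574 (minus) for H2ac19 and chr3:137864287-137864486 (plus) for H2az1.
Hist1h2ap: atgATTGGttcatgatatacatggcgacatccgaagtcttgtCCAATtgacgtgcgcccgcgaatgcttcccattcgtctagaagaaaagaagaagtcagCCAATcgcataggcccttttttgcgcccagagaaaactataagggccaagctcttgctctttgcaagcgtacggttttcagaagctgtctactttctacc
H1f2: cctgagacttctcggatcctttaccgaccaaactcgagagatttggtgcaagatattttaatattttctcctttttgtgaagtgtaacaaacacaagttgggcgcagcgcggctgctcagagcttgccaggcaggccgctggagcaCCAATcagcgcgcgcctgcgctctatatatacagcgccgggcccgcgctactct
H4c4: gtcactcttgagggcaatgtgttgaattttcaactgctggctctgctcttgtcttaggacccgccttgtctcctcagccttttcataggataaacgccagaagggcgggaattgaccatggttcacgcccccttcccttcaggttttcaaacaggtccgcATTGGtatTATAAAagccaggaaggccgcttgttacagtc
H2ac19: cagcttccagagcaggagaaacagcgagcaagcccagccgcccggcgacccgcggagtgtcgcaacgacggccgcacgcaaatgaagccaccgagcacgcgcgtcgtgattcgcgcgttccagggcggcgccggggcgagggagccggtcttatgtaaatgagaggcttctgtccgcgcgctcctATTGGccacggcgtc
H2az1: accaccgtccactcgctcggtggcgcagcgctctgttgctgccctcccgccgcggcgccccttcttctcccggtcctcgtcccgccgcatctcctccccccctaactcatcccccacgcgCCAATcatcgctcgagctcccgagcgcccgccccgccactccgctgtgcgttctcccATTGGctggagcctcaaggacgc
Hist1h2ap holds 3 CCAAT boxes in this stretch, H2az1 2, and each of the others 1; H4c4 alone of the 5 has a TATAAA, whose first base lies 32 bases before the start.

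Promoters of 300 bases, from 250 before to 50 after the start, were found for 36 of the 42 members (37 promoters) by symbol or synonym; H2bc4, H2bc21, H3c7, H3c1, H4c14 and H2ax had no entry. Hist1h2ap is a synonym of both H2ac23 and H2ac24 in the RefSeq table; H2ac23 also carries the name Hist1h2ao, which has a row of its own, so Hist1h2ap was placed at H2ac24. On either strand, CCAAT stood in 80.0% of the 30 clustered promoters and in 57.1% of the 7 variant promoters, against 37.4% of all 32851 promoters of the table. All 8 H2A and all 7 H2B promoters held it, and 2 of the 8 H4 promoters did. TATAAA stood in 50.0% of clustered promoters against 13.6% of all. ATTTGCAT, the octamer known from H2B promoters, stood in 3 of 7 H2B and 2 of 8 H2A promoters of the clusters. It was also in 1 of 7 variant promoters, that of H3f3b, against 1.74% of all promoters. The E2F forms TTTCCCGC and TTTGGCGC were in none of the member promoters, and in 1.07% and 0.514% of all. TGACNNNGC, the core of the antioxidant response element that NRF2 binds, was in none of the clustered promoters and in 1 variant promoter, that of H3f3b, against 12.4% of all. No searched motif contains another, and a match describes the letters only.

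None of the 42 members passed an adjusted p of 0.05 in limma, where 0.205% of all genes tested did. The fit had little power over genes drawn at random from all those tested. In simulated data it recovered 6 of 100 with a log2 change of 1 and 41 of 100 with 2. The median SE was 0.339 over all genes tested. It was 0.214 for members with a mean of at least 50 and 0.914 for those from 10 to 50. Recovery was not simulated for these members apart. The lowest adjusted p of a member was 0.0652, for Hist1h2ap. At an unadjusted p under 0.05 there were 8 members (3 higher and 5 lower in cKO-labelled libraries), or 19.0%, against 12.1% of all genes tested. The groups did not overlap for 9 members (3 higher, 6 lower), or 21.4%, against 17.2% of all genes. The authors' deposited table gives an adjusted p for 13 members, and 1 of them, Hist1h2ap, was past 0.05 there, as were 5.68% of the genes with an adjusted p. The median log2 change, cKO-labelled minus WT, was 0.04 over the clustered members and -0.24 over the variant members, against 0.06 over all genes tested and -0.03 over the 3159 with the shortest gene span.

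**Figure D1:**
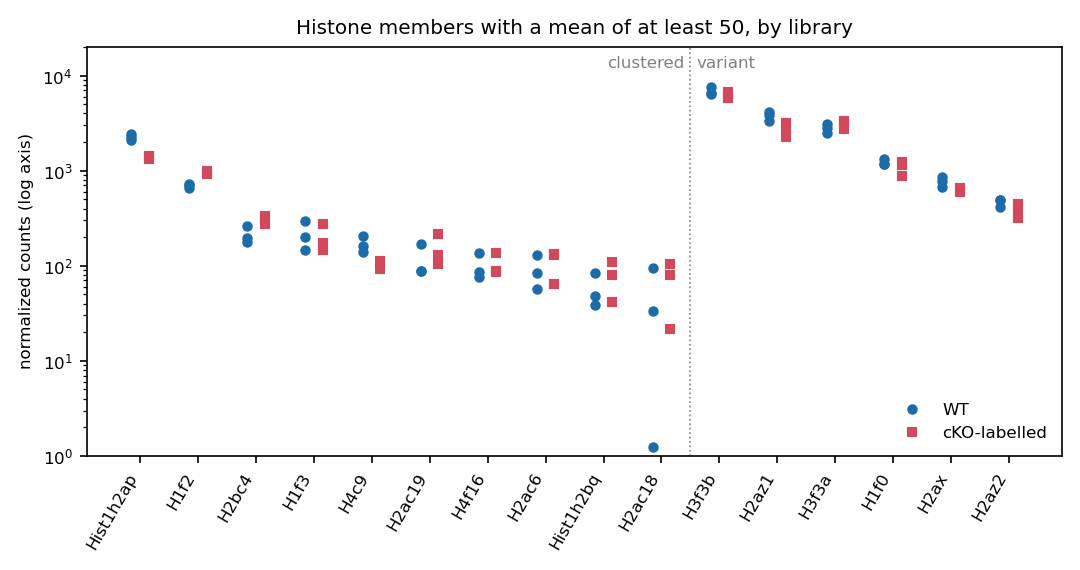
Normalized counts (log axis) of the 16 histone members with a mean of at least 50, by gene; circles are the 3 WT and squares the 3 cKO-labelled RNA libraries. Hist1h2ap stood at 2077 to 2459 in WT and 1316 to 1440 in cKO-labelled libraries, and H1f2 at 651 to 718 and 933 to 982.

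Hist1h2ap encodes a core H2A and was the most abundant clustered member per length, at 4030 normalized counts per kb of its gene span, followed by H1f2 at 1140 and H4c9 at 338; 29 clustered members with spans under 1 kb were compared this way, and the lowest stood at 14.4. It was measured at 2077, 2256 and 2459 in WT and 1440, 1316 and 1394 in cKO-labelled libraries. Every cKO-labelled library lay below every WT library. The difference was larger than the spread between replicates, with means of 2264 ± 191 against 1384 ± 62.7 (SD, n = 3 each). The log2 change was -0.71, with a standard error (SE) of 0.142 and an adjusted p of 0.0652 in limma. The authors' deposited table gives a log2 change of -0.65 with an adjusted p of 0.000755. The limma call depended on the settings, with an adjusted p of 0.0393 after trimmed mean rescaling and 0.00234 with library quality weights. Those weights gave cKO-labelled replicate 1 a weight of 7.43 and the others 0.437 to 1.12. The adjusted p in limma was 0.461 without a mean-variance trend and 0.0529 to 0.348 with 1 library left out. Hist1h2ap took 50.4%, 48.2% and 51.5% of all clustered histone counts in the WT libraries and 36.2%, 33.4% and 35.4% in the cKO-labelled ones.

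Clustered H2A genes share long stretches of sequence, and RSEM, which the submitters' processing notes list, divides reads among matching transcripts, so the level of a single copy is uncertain and the class sum is given beside it. The summed H2A counts of the 15 matched genes stood at 2361, 2682 and 2848 in WT and 1894, 1670 and 1762 in cKO-labelled ones, a ratio of means of 0.675 with no overlap. Hist1h2ap itself made up most of this sum, with a mean of 2264 of 2630 in WT and 1384 of 1775 in cKO-labelled libraries. The ratio therefore mainly repeats that gene and does not show a fall of the other H2A genes. Of the 8 H2A members tested, 5 had a lower and 3 a higher fitted value in cKO-labelled libraries. H2ac19 stood at 88.6, 87.8 and 170.3 in WT and 216.6, 103.1 and 130.3 in cKO-labelled libraries, with overlapping groups (log2 change 0.38, adjusted p = 0.715 in limma). H2ac6 had 56.7, 131 and 83.1 in WT and 133, 128 and 64.1 in cKO-labelled libraries, also overlapping (log2 change 0.28). Hist1h2an was low throughout, at 25.0, 9.07 and 16.8 in WT and at 14.9, 0 and 0 in cKO-labelled libraries (adjusted p = 0.386 in limma).

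The linker histone H1f2 differed the other way. It was measured at 715, 651 and 718 in WT and 933, 982 and 976 in cKO-labelled libraries. Again the groups did not overlap, with means of 695 ± 37.6 and 964 ± 26.5 (SD, n = 3 each). The log2 change was 0.47 (SE 0.156), which did not pass in limma (adjusted p = 0.240) or in the authors' deposited table (adjusted p = 0.0686). H1f2 made up 13.9% to 17.4% of the clustered counts in WT and 23.4% to 24.9% in cKO-labelled libraries. H1f3, a second linker histone, stood at 198, 294 and 147 in WT and 175, 278 and 145 in cKO-labelled libraries, nearly the same range in both (log2 change -0.09, SE 0.312). H1f4 was at 2.98, 0.00 and 25.1 in WT and 11.7, 33.7 and 18.6 in cKO-labelled libraries, and its log2 change of 2.12 carried an SE of 1.09. The summed H1 counts of the clusters stood at 943 ± 38.2 in WT and 1200 ± 102 in cKO-labelled ones (SD, n = 3 each), a ratio of 1.27 with no overlap. H1f2 made up most of this sum, with a mean of 695 of 943 in WT and 964 of 1200 in cKO-labelled libraries.

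Among H2B genes, H2bc4 had 179, 264 and 195 normalized counts in WT and 321, 273 and 337 in cKO-labelled libraries. These did not overlap, but the log2 change of 0.56 (SE 0.229) did not pass in limma (adjusted p = 0.350). Hist1h2bq ranged from 38.2 to 83.7 in WT and from 41.9 to 110 in cKO-labelled libraries. Its 300-base promoter is identical at all 300 positions to that of Hist1h2br. Their transcripts were not compared, so whether reads from these copies can be told apart is unknown. Hist1h2br was listed at 0 in 1 WT and 2 cKO-labelled libraries. H2bc21 (29.8, 65.3 and 34.0 against 30.9, 41.7 and 48.1) overlapped fully, and H2bc8 (16.6, 2.58 and 8.63 against 33.3, 13.2 and 23.1) overlapped in part. The H2B sum was 435 ± 83.5 in WT and 544 ± 40.0 in cKO-labelled libraries, a ratio of 1.25 with overlapping groups. As a share of the library total it did not overlap, at 0.00478% to 0.00749% in WT and 0.00778% to 0.0079% in cKO-labelled libraries.

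The H3 genes of the clusters were all low, with 5 members between a mean of 10 and 50. H3c10 was listed at 5.78, 0 and 0 in WT and at 21.9, 29.0 and 18.2 in cKO-labelled libraries, and H3c11 at 5.78, 37.6 and 71.2 in WT and 5.25, 0 and 7.79 in cKO-labelled libraries. H3c10 was thus higher in every cKO-labelled library and H3c11 lower in all but 1. Their fitted log2 changes of 3.64 (adjusted p = 0.173) and -2.81 (adjusted p = 0.312) pointed in opposite directions and neither passed in limma. In WT replicate 1 both were listed at 5.78. Summed, they stood at 11.6, 37.6 and 71.2 in WT and 27.1, 29.0 and 26.0 in cKO-labelled libraries, which overlap. H3c6 (21.7, 12.9 and 14.9 against 22.8, 10.6 and 19.5) and H3c7 (2.97, 34.6 and 10.0 against 7.55, 0.885 and 22.0) overlapped too. The H3 sum had a ratio of 0.874 with overlapping groups.

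H4c9, the most abundant clustered H4 gene per length, stood at 139, 162 and 207 normalized counts in WT and 91.6, 111 and 106 in cKO-labelled libraries. Every cKO-labelled value lay below every WT value, and the log2 change of -0.69 (SE 0.269) did not pass in limma (adjusted p = 0.317). H4f16, the only clustered member on chromosome 6, had 86.5, 137 and 76.9 against 87.5, 135 and 86.8, a log2 change of 0.06. H4c8 (32.0, 7.75 and 19.5 against 3.46, 26.4 and 13.8) and Hist1h4m (13.5, 23.3 and 0.00 against 14.0, 36.0 and 10.4) overlapped. The H4 sum was 395 ± 51.3 and 326 ± 39.4, a ratio of 0.825 with overlapping groups.

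**Figure D2:**
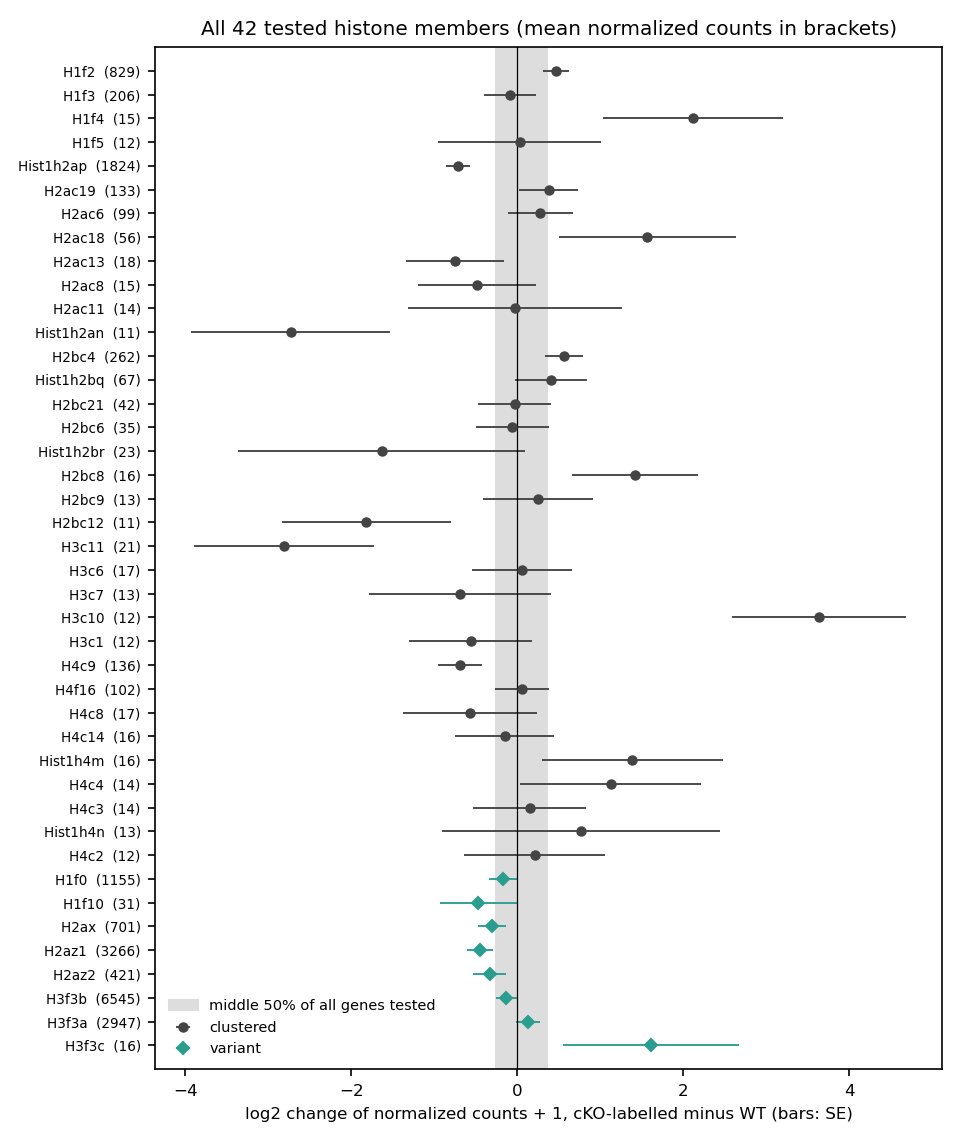
Log2 change of normalized counts plus 1, cKO-labelled minus WT, of all 42 tested histone members (points) with limma's SE (bars) and the mean normalized count in brackets; the grey band is the span between the quartiles of all genes tested, from -0.25 to 0.36. The widest bars belong to members with a low mean, such as Hist1h2br and Hist1h4n.

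Most clustered members were low, with wide errors. Of the 34, 24 had a mean under 50, 20 a mean under 20, and 10 were listed at 0 in at least 1 library. The median SE of the log2 change was 0.914 for clustered members with a mean from 10 to 50, against 0.625 for all tested genes in that range. At that precision only a large change could pass, and a member that did not pass is not shown to be alike in both groups. The 10 clustered members with a mean of at least 50 had a median log2 change of 0.33, against 0.05 for all such genes.

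Over all 58 clustered genes the sums stood at 4118, 4682 and 4773 in WT and 3981, 3938 and 3934 in cKO-labelled ones, a ratio of means of 0.873. Every cKO-labelled sum lay below every WT sum, with 1 WT library close to them. Without Hist1h2ap and H1f2, the sums of the other 56 genes were 1566 ± 226 and 1604 ± 37.9 (SD, n = 3 each), a ratio of 1.02 with overlapping groups. By place, the 49 matched genes on chromosome 13 had a ratio of 0.847 and the 8 on chromosome 3 a ratio of 1.28, both without overlap. Hist1h2ap lies on chromosome 13, with a mean of 2264 of 4187 there in WT and 1384 of 3546 in cKO-labelled libraries. Its fall was larger than that of the whole sum, so the ratio does not show a fall of the other genes there. On chromosome 3 the gap was narrow, with 263.9 highest in WT and 268.3 lowest in cKO-labelled libraries. As a share of each library's total the clustered groups overlapped, at 0.0561% to 0.0677% in WT and 0.0534% to 0.0612% in cKO-labelled libraries. So did chromosome 13, with 0.0523% in WT replicate 1 against 0.055% in cKO-labelled replicate 2, whereas chromosome 3 and the H1, H2A, H2A.Z and H2A.X classes still did not overlap.

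**Figure D3:**
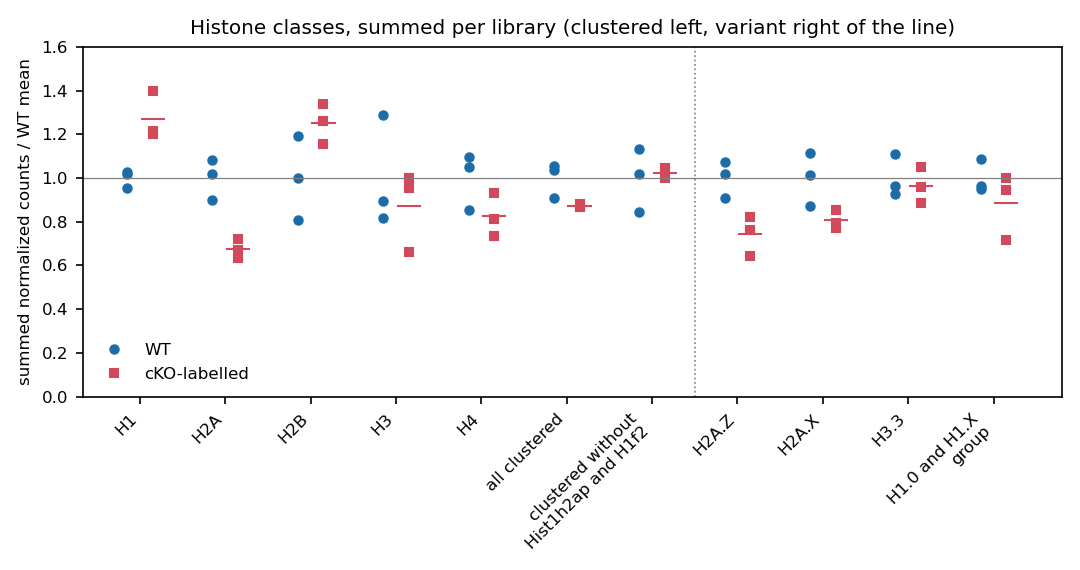
Summed normalized counts of each histone class in each RNA library, divided by that class's WT mean; circles are WT, squares cKO-labelled libraries, and short lines the cKO-labelled means. H2A (0.675), H1 (1.27) and H2A.Z (0.743) lie apart from WT in all 3 libraries, while the clustered genes without Hist1h2ap and H1f2 lie around 1.02. Hist1h2ap made up most of the H2A sum and H1f2 most of the H1 sum.

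H2az1 encodes H2A.Z.1, the main H2A.Z protein. It stood at 4116, 3823 and 3346 normalized counts in WT and 2865, 2277 and 3167 in cKO-labelled libraries. The groups did not overlap, although the lowest WT and the highest cKO-labelled library were close. The log2 change of -0.45 (SE 0.155) did not pass in limma (adjusted p = 0.259) or in the authors' deposited table (adjusted p = 0.120). H2az2, which encodes H2A.Z.2, had 419, 492 and 491 in WT and 364, 441 and 316 in cKO-labelled libraries, with 1 cKO-labelled library inside the WT range (log2 change -0.33, adjusted p = 0.538 in limma). H2ax, the gene of H2A.X, had 787, 677 and 866 in WT and 616, 598 and 665 in cKO-labelled libraries, without overlap (log2 change -0.30, adjusted p = 0.504 in limma). The H2A.Z genes summed to 4229 ± 357 and 3143 ± 389 (SD, n = 3 each), a ratio of 0.743.

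The H3.3 genes supply H3 outside S phase. H3f3b stood at 7613, 6488 and 6461 in WT and 6128, 5823 and 6758 in cKO-labelled ones (log2 change -0.13, SE 0.128). H3f3a had 3135, 2834 and 2473 against 3136, 2733 and 3368 (log2 change 0.13, SE 0.146). Both overlapped, and their changes had opposite signs. H3f3c was listed at 0, 9.07 and 25.3 in WT and 18.4, 12.3 and 28.5 in cKO-labelled libraries, so its log2 change of 1.61 carried an SE of 1.06. Of the linker histones outside the clusters, H1f0 had 1322, 1165 and 1166 against 1158, 888 and 1230 (log2 change -0.17), and H1f10 37.6, 37.2 and 31.3 against 35.3, 17.7 and 25.4 (log2 change -0.47); both overlapped.

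Of 28 tested genes that transcribe, process or bind histone mRNA, 1 passed in limma, where 0.205% of all genes tested did. This was Snrpe, and it fell. It encodes the Sm protein E of splicing particles and of the U7 particle that cuts histone mRNA ends, and had 1366, 1376 and 1518 normalized counts in WT and 664, 832 and 637 in cKO-labelled ones (log2 change -1.01, SE 0.165, adjusted p = 0.0421). Snrpg, for Sm protein G, was close to the threshold (log2 change -0.93, adjusted p = 0.0546) and Snrpd3 farther from it (-0.50). No gene of the list was called after quantile normalization, without the variance trend, or without WT replicate 2 or 3 or cKO-labelled replicate 1 or 3. By sign the list was split evenly, with 14 higher and 14 lower, and its median log2 change was -0.03. At an unadjusted p under 0.05 in limma there were 5 lower and none higher: Snrpe, Snrpg, Snrpd3, Slbp and Snrpf. All genes tested gave 1094 in each direction, or 12.1% in all. The authors' deposited table calls 2 of its genes lower, where 5.68% of all genes with an adjusted p are called in either direction. Slbp, the protein that binds the stem-loop of histone mRNA, had 918, 1077 and 993 in WT and 711, 797 and 698 in cKO-labelled libraries. These groups did not overlap, and the log2 change of -0.44 did not pass in limma (adjusted p = 0.295).

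None of 33 histone chaperones, import factors and enzymes that act on new histones passed in limma, where 0.205% of all genes tested did. The authors' deposited table calls 6 lower and 1 higher, where it calls 5.68% of all genes with an adjusted p. It gives no adjusted p for Tonsl and Chaf1b. The 33 had a median log2 change of -0.13. At an unadjusted p under 0.05 there were 12 lower and 3 higher. All genes tested gave 1094 in each direction, or 12.1% in all. Npm1, a nucleolar histone chaperone, had 21830, 17260 and 19340 normalized counts in WT and 12670, 13000 and 13040 in cKO-labelled ones (log2 change -0.59, adjusted p = 0.0681). Nasp, which binds H3 and H4 before assembly and also linker histone, had 1310, 1153 and 1163 in WT and 717, 727 and 720 in cKO-labelled ones (log2 change -0.74, adjusted p = 0.0724). Ep400, the ATPase of a complex that deposits H2A.Z, was higher in all 3 cKO-labelled libraries, at 1070, 650 and 866 against 478, 286 and 439 (log2 change 1.11, adjusted p = 0.0834).

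None of 44 S phase genes passed in limma either, although 41 had a lower fitted value in cKO-labelled libraries, 18 of them at an unadjusted p under 0.05, and their median log2 change was -0.48. The authors' deposited table calls 7 of them lower. Tyms, which makes thymidylate, had 767, 433 and 526 in WT and 308, 262 and 311 in cKO-labelled ones (log2 change -0.93, adjusted p = 0.115). Rrm1, a ribonucleotide reductase subunit, had a log2 change of -0.76, and Rpa3, a subunit of the single-strand DNA binding complex, one of -0.86. Over all genes tested 8139 had a lower fitted value, 1094 of them at an unadjusted p under 0.05, and the authors' deposited table calls 526 of 9263, or 5.68%, in either direction. Beside the S phase genes stand the summed clustered histone genes at a ratio of 0.873. By class, H2A, mostly Hist1h2ap, stood at 0.675, H4 at 0.825 and H3 at 0.874. The other way went H1, mostly H1f2, at 1.27 and H2B at 1.25. The ratio of all clustered genes was 1.02 without Hist1h2ap and H1f2, which were left out for their own difference after their values were seen. The part of S phase or of cell cycle stage in the histone differences was not tested.

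At the starts of the members, within 1 kb, the 6 ATAC peak lists gave 33 separate regions, each with a peak in all 6 lists; 7 regions are shared by 2 or more members. Hist1h2ap, Hist1h2bq, Hist1h2br and H3f3c had no region, so the most abundant clustered H2A has no accessibility value here. A region's height was taken from its highest peak, in tags per 10000000, compared with limma after quantile normalization. Of the 33 regions, 13 were called lower, or 39.4%, against 4.33% of all 33531 regions, and 3 were called higher, or 9.09%, against 3.67%. Among the 26 regions at clustered genes, 12 were lower and none higher, 21 had a negative change, and the median log2 change was -0.27. Of the 7 regions at variant genes, 3 were higher (H2az1, H3f3b and H2az2) and 1 was lower (H1f0). With 1 library left out the 13 lower became 7, 8 and 5 without cKO-labelled replicate 1, 2 and 3, and the 3 higher became 0 without WT replicate 3 or any cKO-labelled one. Regions at any gene start had a median of 0.12, with 2.84% lower and 5.92% higher.

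The direction at the clustered genes depended on the scaling. Over all regions the calls were 54.2% lower after quantile normalization, 86.8% lower on the deposited heights and 16.4% lower after subtracting each library's median, which itself put the median change of all regions at 0.158 against 0.022. At the 26 clustered regions the deposited heights gave 2 lower and none higher (median 0.07), and median subtraction gave 2 lower and 14 higher (median 0.38). Cyclic loess gave 12 lower and none higher, as quantile normalization did. The variant median stood above the clustered one under all 4 scalings, at 0.13 after quantile normalization, 0.50 on the deposited heights and 0.81 after median subtraction. No direction of the clustered regions as a set can be read from these lists.

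**Figure D4:**
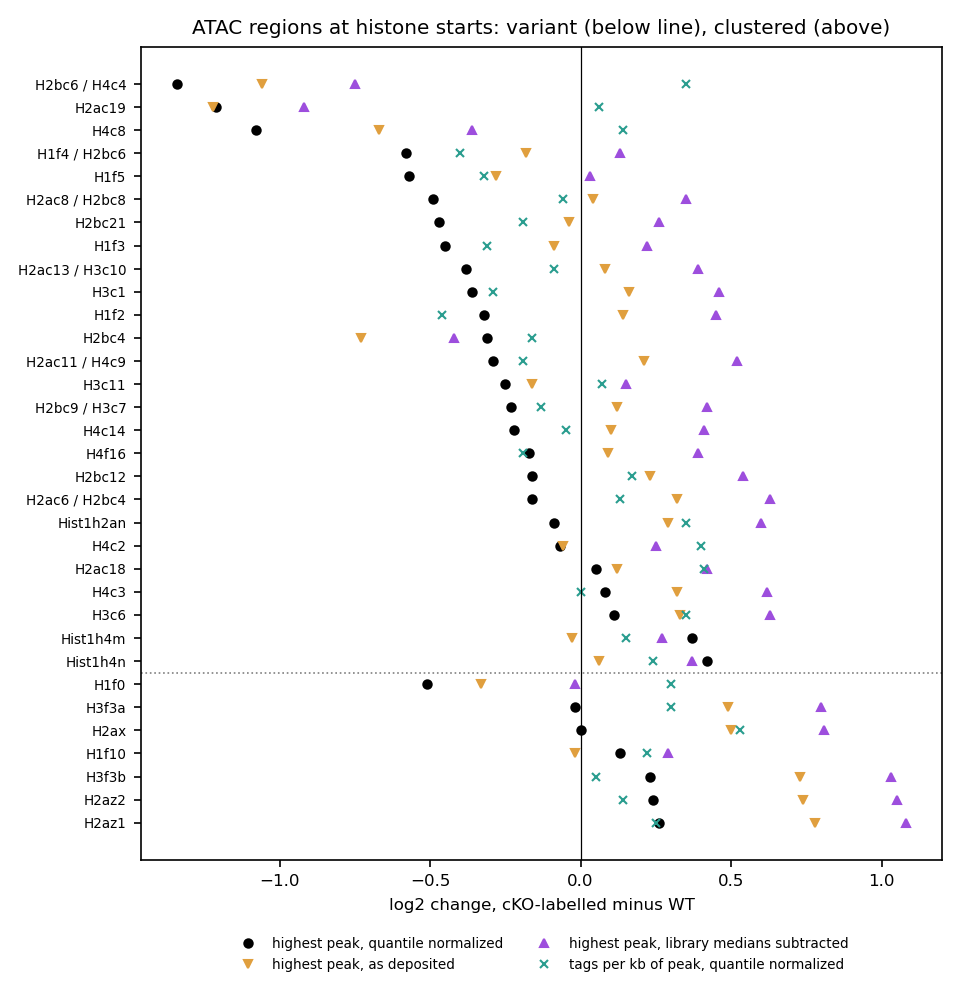
Log2 change, cKO-labelled minus WT, at the 33 ATAC regions by gene, under 4 measures: the highest peak after quantile normalization (circles), as deposited (triangles down) and after subtracting library medians (triangles up), and tags per kb of peak after quantile normalization (crosses). Only the regions at H2bc6 / H4c4, H2ac19, H4c8 and H2bc4 (clustered) and H1f0 (variant) lie below 0 by all 3 measures of the highest peak, and of these only H2bc4 does so per kb.

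The region at H4c4 and a start of H2bc6, at chr13:23581148-23586479, had the largest log2 fall in height after quantile normalization. On the deposited heights H2ac19 fell more (-1.22 against -1.06), as it did after median subtraction (-0.92 against -0.75). Its highest peak held 278.6, 182.0 and 245.9 tags per 10000000 in WT and 114.5, 108.0 and 110.3 in cKO-labelled libraries. The groups did not overlap, and the log2 change was -1.34 (adjusted p = 4.7e-05 in limma). In each WT list this region was 1 peak covering 5245, 5291 and 5172 bp, and in each cKO-labelled list 2 peaks covering 3383, 2944 and 4136 bp in all. Summed over the peaks, the tags stood at 278.6, 182.0 and 245.9 in WT and 213.8, 205.0 and 219.4 in cKO-labelled ones, which overlap. After quantile normalization the log2 change of the summed tags was -0.50 (adjusted p = 0.000803 in limma). Per kb of peak the change was 0.35 (adjusted p = 0.223 in limma).

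The region at H2ac19, chr3:96236946-96241055, was likewise 1 peak in the WT lists and 2 in the others. It also holds H3c15, a matched gene with a mean under 10. Which gene each peak covers was not examined. The highest peak held 115.9, 87.8 and 114.1 in WT and 42.1, 43.4 and 47.9 in cKO-labelled ones (log2 change -1.21, adjusted p = 0.00136 in limma). The summed tags stood at 115.9, 87.8 and 114.1 in WT and 79.4, 72.7 and 84.8 in cKO-labelled ones, which still did not overlap. Their log2 change was -0.51 (adjusted p = 0.0101 in limma), and per kb the change was 0.06. At H4c8, chr13:23530044-23537737, the highest peak held 440.8, 345.9 and 242.5 in WT and 197.6, 224.8 and 207.2 in cKO-labelled ones (log2 change -1.08, adjusted p = 0.018 in limma). H2ac10 and H3c8, matched genes also below that mean, lie in this region too. This region was 1 peak in WT replicates 1 and 2 and 2 peaks in WT replicate 3 and in all cKO-labelled lists. Its deposited summed tags overlapped, and their log2 change after quantile normalization was -0.58 (adjusted p = 0.000357 in limma).

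The other 9 clustered regions called lower were at H3c1, H1f4 and H2bc6, H2ac8 and H2bc8, H1f5, H1f3, H2bc21, H2ac13 and H3c10, H2ac11 and H4c9, and H1f2, with log2 changes from -0.58 (H1f4 and H2bc6) to -0.29 (H2ac11 and H4c9). Their deposited heights overlapped between the groups in every case. At H1f2, for example, the heights stood at 386.5, 198.1 and 367.6 in WT and 335.3, 327.7 and 344.9 in cKO-labelled ones, so that only WT replicate 2, the library with the lowest share of tags in peaks, lay below the others. The log2 change there was -0.32 after quantile normalization and 0.14 on the deposited heights, beside the higher H1f2 mRNA in cKO-labelled libraries.

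Peaks at clustered histone genes covered less DNA in the cKO-labelled lists. At 14 of the 26 clustered regions, or 53.8%, every cKO-labelled library covered fewer bases than every WT library, and at none did every one cover more. Over all regions the share was 17.0%, and at any gene start 16.2%, or 22.8% where the WT peaks averaged at least 2 kb. The ratio of mean lengths, cKO-labelled over WT, had a median of 0.845 at clustered regions, 0.914 at variant regions and 0.928 at any gene start. At H2ac8 and H2bc8, for example, peaks covered 7542, 7408 and 6412 bp in WT and 6145, 5611 and 6116 bp in cKO-labelled libraries. Over all regions the median covered length was 1082 to 1171 bp in WT and 926 to 1059 bp in cKO-labelled libraries, so shorter peaks were also general; the part of tag number and peak calling in this was not tested. The length was examined after the heights had been seen.

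**Figure D5:**
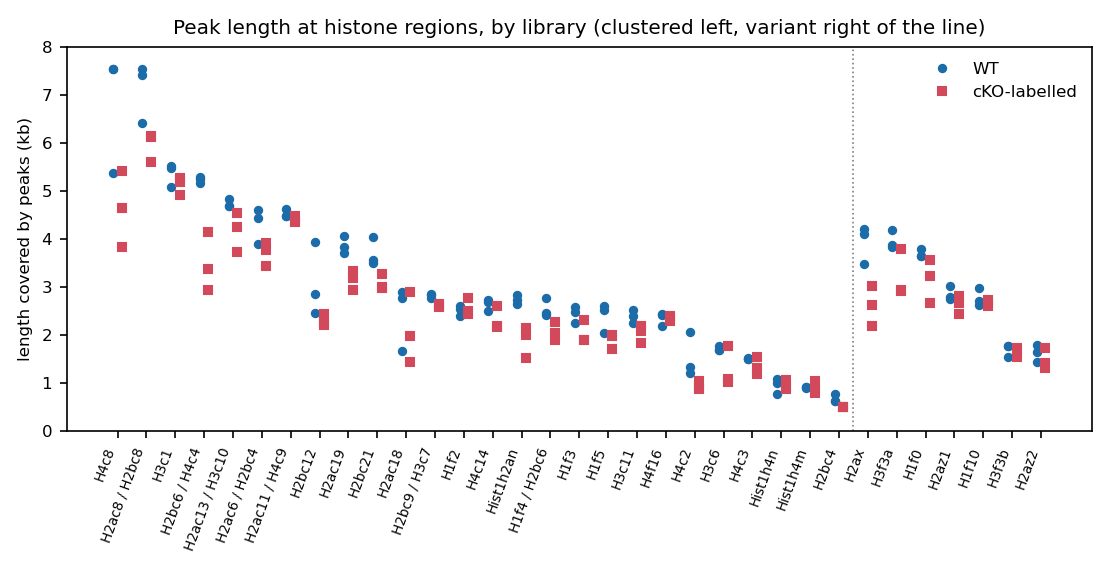
Length in kb covered by peaks at each of the 33 regions in each ATAC library; circles are WT and squares cKO-labelled libraries. At 14 of the 26 clustered regions and 3 of the 7 variant regions all squares lie below all circles, and at no region do all squares lie above.

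The H2az1 region, chr3:137863288-137866299, was higher in the cKO-labelled libraries, while its mRNA was lower. Heights stood at 426.1, 230.3 and 372.1 in WT and 558.4, 580.7 and 566.9 in cKO-labelled ones, without overlap. The log2 change was 0.26 after quantile normalization (adjusted p = 0.0319 in limma), 0.78 on the deposited heights and 1.08 after median subtraction. The regions at H2az2 (369.5, 204.9 and 337.2 against 492.9, 477.8 and 507.2) and H3f3b (352.9, 213.9 and 322.5 against 473.9, 478.0 and 491.3) did not overlap either, with log2 changes of 0.24 and 0.23. None of these 3 passed on tags per kb of peak. H3f3a and H2ax also had higher deposited heights in every cKO-labelled library, but their log2 changes after quantile normalization were -0.02 and -0.00. H1f0 was lower by its highest peak (log2 change -0.51, adjusted p = 0.0364 in limma), with deposited heights of 151.4, 104.2 and 141.9 against 92.1, 134.0 and 91.3. It was 2 peaks in cKO-labelled replicates 1 and 3. Its summed tags stood at 151.4, 104.2 and 141.9 against 135.2, 134.0 and 129.3, which overlap. Their log2 change of -0.19 after quantile normalization did not pass (adjusted p = 0.152 in limma).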

How the data were processed

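RNA-seq and ATAC-seq were each measured in 3 WT and 3 cKO libraries, grouped by the labels. The submitters' processing notes name the aligners STAR and Bowtie2 2.3.5.1, the quantifier RSEM 1.3.3, the packages DESeq2 and edgeR, the peak caller HOMER 4.11, and the build mm10, with no settings. RNA values were used as deposited: a signal of normalized counts made by the authors, not whole numbers. The authors' deposited fold change is on a log2 scale, with the authors' deposited p-value and adjusted p-value. The deposited ATAC peak lists give a signal, tags per 10000000, per the file headers; the deposited peak score and the deposited ratio of fold change were not used.

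Genes with a mean of at least 10 were tested as log2 of the value plus 1 with limma 3.58.1 in R 4.3.3 (mean-variance trend, Benjamini-Hochberg over all genes, threshold 0.05). Peaks sharing 1 bp were merged (numpy 2.4.6 and pandas 2.3.3 under Python 3.11.15); regions with a peak in all 6 lists were tested after quantile normalization of log2 height plus 1, because subtracting medians left a change that grew with height in earlier results. Where no promoter entry gave a start, either end of the gene was used. The fits were tested on simulated data with 100 features, drawn at random from all those tested, changed at each size. The RNA fit recovered 6 of 100 at a log2 change of 1 and 41 of 100 at 2. The ATAC fit recovered 44 and 88. Figures were drawn with matplotlib 3.10.9.

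The members and lists were chosen with earlier results of these data known. Named members were all variant members, the 3 most abundant and the 2 of smallest p in each clustered class, those past either threshold, and the 3 of smallest p and those past the threshold in each list; Slbp and single ATAC regions were chosen after their values were seen. Alternatives were other pseudocounts, filters, normalizations, variance models and peak rules, the replicate number as a block, and each library left out. Protein sequences were not used here.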

Additional observations from a re-analysis of the deposited data

How the results depend on the processing

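Limits first: 3 libraries per group, unknown RNA depth, low members with wide errors, reads shared between histone copies, and peak lists in place of coverage bound what can be seen; 33 regions and 42 members were described, and no member passed in limma.

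Of 18074 genes, 37 passed; the count was 73 with trimmed mean rescaling, 6 without a mean-variance trend, 1783 with library quality weights (which gave cKO-labelled replicate 1 a weight of 7.43 and the others 0.437 to 1.12), 526 by the authors' adjusted p, and from 1 (without WT replicate 2) to 150 (without cKO-labelled replicate 2) with 1 library left out. With the replicate number as a replicate block it was 122; deviations of WT and cKO-labelled libraries with 1 number correlated at 0.116, 0.206 and -0.055 (RNA) and at -0.023, -0.008 and 0.004 (ATAC), so the numbers are not taken to pair the libraries. Members called numbered 1 with trimmed mean rescaling, 1 with the replicate block and 1 by the authors' adjusted p, each time Hist1h2ap (adjusted p of 0.0393, 0.0485 and 0.000755), and 4 with quality weights (Hist1h2ap, H2bc4, H3c10 and H4c9). Over all its alternatives the adjusted p of Hist1h2ap ran from 0.000755 to 0.461 and its log2 change from -0.77 to -0.65.

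In the mRNA processing list, with 1 called, 2 were called with a pseudocount of 5, no filter, a minimum mean of 50, trimmed mean rescaling, the replicate block or the authors' adjusted p, 4 with quality weights, 0 with quantile normalization or without a trend, and 0 to 2 with 1 library left out. In the chaperone list, with 0 called, 2 were called with trimmed mean rescaling or the replicate block, 13 with quality weights, 7 by the authors' adjusted p, and 0 to 1 with 1 library left out. In the S phase list, with 0 called, 12 were called with quality weights and 7 by the authors' adjusted p. The clustered median of 0.04 was 0.33 at a minimum mean of 50.

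With 1 library left out, signs of low or small RNA changes turned, over ranges of -0.36 to 0.17 for H1f3, -0.01 to 0.62 for H2ac6, -0.25 to 0.30 for H2bc21, -0.15 to 0.37 for H3c6, -1.53 to 0.27 for H3c7, -1.16 to 0.15 for H4c8, -0.15 to 0.3 for H4f16 and -0.02 to 2.28 for Hist1h4m. H3f3b turned with quantile normalization (0.03) and H4f16 with quality weights (-0.04).

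ATAC calls over all regions, 2681 in all, were 11223 after median subtraction, 4742 on summed tags, 833 per kb of peak, 2141 with the replicate block, and 377 to 2067 with 1 library left out. Regions at histone genes called lower were 2 after median subtraction, 2 without scaling and 1 per kb, and 5 to 12 with 1 library left out (7, 8 and 5 without cKO-labelled replicates 1, 2 and 3); those called higher were 19, 3 and 0, and 0 to 3 with 1 library left out (0 without WT replicate 3 or any cKO-labelled one). With the replicate block they were 13 lower and 2 higher. On summed tags 12 clustered regions were lower and 3 variant regions higher, with none the other way. After median subtraction the sign turned at H3c1 (0.46), H1f4 and H2bc6 (0.13), H2ac8 and H2bc8 (0.35), H1f5 (0.03), H1f3 (0.22), H2bc21 (0.26), H2ac13 and H3c10 (0.39), H2ac11 and H4c9 (0.52) and H1f2 (0.45). Without scaling it turned at H3c1 (0.16), H2ac8 and H2bc8 (0.04), H2ac13 and H3c10 (0.08), H2ac11 and H4c9 (0.21) and H1f2 (0.14). Per kb of peak it turned at H2bc6 and H4c4 (0.35), H2ac19 (0.06), H4c8 (0.14) and H1f0 (0.30). The cause of these changes was not tested, beyond the peak lengths given above.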

Other observations

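Histone genes whose symbols fall outside the rule gave a few further values. Cenpa, the H3 variant of centromeres, had 626, 634 and 541 normalized counts in WT and 323, 397 and 326 in cKO-labelled libraries. These groups did not overlap, and the log2 change of -0.78 (SE 0.187) did not pass in limma (adjusted p = 0.111), while the authors' deposited table gives it an adjusted p of 0.00553. H2aj, an H2A gene outside the clusters, had 4369, 5691 and 5406 in WT and 3617, 4300 and 3336 in cKO-labelled libraries, also without overlap (log2 change -0.46, adjusted p = 0.233 in limma). Macroh2a1, which encodes the H2A variant with a macro domain, had a log2 change of -0.04, and H2aw one of -0.00. H2aj, Macroh2a1 and H2aw were chosen after the table was seen.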
